A study of Mus musculus with 10 samples.

Results

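The gamma crystallins were followed through RNA-seq libraries of mouse lens epithelium. The 8 genes were taken by symbol (Cryga, Crygb, Crygc, Crygd, Cryge, Crygf, Crygs and Crygn) from the 50763 genes counted, and all 8 were present in each of the 10 libraries. Whole epithelial explants, with any subcapsular plaque on them, came from mice of 3 weeks of age on the FVB/N background. There were 3 libraries from wild-type (WT) mice, 3 from OVE853 mice and 4 from OVE918 mice. OVE853 and OVE918 are separate transgenic families in which the αA-crystallin promoter drives a human TGF-β1 that is secreted in active form from lens cells, and WT mice carry no transgene. Each library came from pooled animals, up to 9 mice per pool for WT and OVE853 and up to 7 for OVE918, so the spread between libraries is that between pools. The comparisons ask whether lens epithelium exposed to excess TGF-β1, which develops anterior subcapsular cataract, differed in its gamma crystallin RNA.

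Crystallins are the soluble proteins that fill lens cells and give the lens its refractive power. The gamma crystallins are small, monomeric, tightly folded members of the βγ superfamily. The γA to γF proteins are products of lens fiber cells, the elongated cells that form from epithelial cells at the lens equator, and they are densest in the oldest, central fibers. γS-crystallin is made later in life and is abundant in the younger, outer fibers, whereas γN-crystallin shares features with both the β and the γ branches. Mutations in several of these genes cause cataract in mice. In bulk RNA, a change in the number of cells that make a crystallin and a change in RNA per cell cannot be told apart.

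Total counts on genes ranged from 24073311 to 31908525 per library. Tgfb1, the check on the transgene, was at 50.6 to 61.7 CPM (counts scaled to library size) in WT, 339 to 361 in OVE853 and 715 to 881 in OVE918, so all libraries matched their labels. CPM values here are also scaled by TMM factors, which make libraries comparable. Lens epithelium markers (Foxe3, Pax6, Cdh1, Gja1 and Tfap2a) were all detected in every group, at a summed 1705 to 2251 CPM in WT, 1591 to 1697 in OVE853 and 1260 to 1507 in OVE918. Lens fiber cell markers were also present in every library, at a summed 6872 to 15050 CPM in WT, 11220 to 15560 in OVE853 and 13570 to 16830 in OVE918. WT replicate 3 was lowest in that sum and highest in cornea markers (1616 CPM against 237 and 937 in the other WT libraries) and photoreceptor markers (109 CPM).

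Of the 8 genes, 6 lay on chromosome 1 (Cryga to Crygf, called the cluster here) and 2 elsewhere. Cryge, Crygd, Crygc, Crygb and Cryga lay in that order within 54.824 kb of chromosome 1 on the minus strand (GRCm39, GENCODE vM39 annotation), from chr1:65087713-65090400 for Cryge to chr1:65139548-65142537 for Cryga. Crygf lay 823.142 kb further along, on the plus strand, at chr1:65965679-65967466. Crygs was on the minus strand at chr16:22623953-22630327 and Crygn on the minus strand at chr5:24956001-24963006. The coding sequences of Cryge and Crygf were 98.1% identical, and those of Crygd were 91.6% identical to Cryge and 90.6% to Crygf. Other pairs among Cryga to Crygf had 79.3% to 84.1% identity, and Crygs and Crygn had 55.7% to 60.2% to any other member. Levels of genes this alike are uncertain where a read could fit more than 1 of them, and read pairs that map to several places were not counted. Of the 150-base windows of the transcripts, 14.5% of those of Crygb occurred letter for letter in Crygc, 11.4% of those of Crygc in Crygb, 4.85% of those of Crygd in Cryge and 5.4% of those of Cryge in Crygd, and 0 windows of Crygf occurred in another gene. Of the Cryga windows, 41.8% also occurred in Gm28845, an overlapping gene on the same strand that was not in the count table.

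Sequences before the transcription start are shown because Cryga to Crygf varied together in the results. They were taken from the RefSeq promoter table (GRCm38.p6) and placed on GRCm39 by exact match. The first 3 lines give the 110 bases before the RefSeq start, with the letters TTTGTG and the TATATA run in capitals. Of these bases 15 (Cryga), 9 (Crygb) and 2 (Crygf) lay in a GENCODE exon. The positions are chr1:65142523-65142632 (minus strand) for Cryga, chr1:65121450-65121559 (minus strand) for Crygb and chr1:65965571-65965680 (plus strand) for Crygf. The remaining lines give 30 bases with only the TATATA or TATAAA letters in capitals, at chr1:65112701-65112730 (Crygc), chr1:65102610-65102639 (Crygd), chr1:65090321-65090350 (Cryge), chr16:22630166-22630195 (Crygs) and chr5:24962857-24962886 (Crygn), all on the minus strand. For Crygc, Crygd, Crygs and Crygn all 110 bases before the RefSeq start lay in a GENCODE exon, and for Cryge 78 did. Their lines are upstream sequence by the RefSeq start only. The TATATA letters of Cryge began 18 bases before that start, and the end of its line runs just past it.
Cryga: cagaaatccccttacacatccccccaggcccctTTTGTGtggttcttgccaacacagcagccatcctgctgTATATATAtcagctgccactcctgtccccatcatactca
Crygb: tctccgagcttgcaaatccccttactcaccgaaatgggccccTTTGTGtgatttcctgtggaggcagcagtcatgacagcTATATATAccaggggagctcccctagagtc
Crygf: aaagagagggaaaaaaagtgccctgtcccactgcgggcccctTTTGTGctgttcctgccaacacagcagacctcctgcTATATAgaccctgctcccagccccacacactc
Crygc: accctcctgcTATATAgaccagccactctc
Crygd: gacctcctgcTATATAgaccctgctcccag
Cryge: gacctcctgcTATATAgaccctgctcccag
Crygs: aactgccctcTATAAAtgtccctctgcctg
Crygn: cgccacagagTATATAccgggtctcgcagt

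The letters TATATA, chosen after these promoters had been read, occurred on either strand within the 110 bases of 7 of the 8 members, against 2.37% of 32851 RefSeq promoters. TTTGTG, chosen in the same way, occurred in the 6 clustered members and in neither Crygs nor Crygn, against 6.72% of promoters, and began 35 to 38 bases before the start of the TATATA run. The common TATA box TATAAA occurred in the 300-base window of Crygs alone among the members, against 13.6% of promoters. The letters TGCTGA, part of a Maf recognition element, occurred in 4 members (19.5% of promoters), the ACAAT letters read by Sox factors in 4 (31.0%) and the Smad letters CAGAC in 3, Crygd, Cryge and Crygf (49.6%). TATATA and TATAAA share their first 4 letters, both strands were searched for every motif, and a match is a description of sequence only.

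Per unit of transcript length, Crygs was the most abundant member. Its FPKM (CPM divided by transcript length in kb) was 13300 ± 2342 in WT (SD, n = 3), 8598 ± 2426 in OVE853 (SD, n = 3) and 16710 ± 5596 in OVE918 (SD, n = 4), and it ranked first in 9 of the 10 libraries. Crygb ranked first in the other library, OVE853 replicate 2, and second elsewhere. In WT the mean FPKM of the other genes ran from Crygb (1820) through Crygc (1567), Crygd (917), Cryge (554), Crygn (518) and Cryga (299) to Crygf (155). These means had SDs of up to 1493 FPKM (Crygb), but within each WT library the order Crygb, Crygc, Crygd, Cryge, Cryga, Crygf held. Of its steps, Crygb over Crygc, Crygd over Cryge, Cryge over Cryga and Cryga over Crygf held in all 10 libraries, whereas Crygc was above Crygd in 3 of 3 WT, 2 of 3 OVE853 and 0 of 4 OVE918 libraries. Crygn took ranks 5 to 8 of 8. In OVE918 the mean FPKM of Crygb was 11210 and that of Crygf 1969, with SDs of 6677 and 1303.

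The gamma crystallins of the cluster varied between pools of the same group more than almost any other gene. Cryga was at 411, 132 and 21.1 CPM in WT replicates 1 to 3, at 165, 4239 and 395 CPM in OVE853 replicates 1 to 3, and at 2672, 491, 1745 and 3439 CPM in OVE918 replicates 1 to 4. Every OVE918 library was above every WT library for this gene, whereas OVE853 held both values below WT replicate 1 and the highest value of all. Cryge was at 962, 356 and 36.0 CPM in WT, at 346, 5920 and 521 CPM in OVE853 and at 7053, 1068, 3993 and 8505 CPM in OVE918. It too was higher in each OVE918 library than in any WT library, though OVE918 replicate 2 exceeded WT replicate 1 by little.

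Crygb, the clustered gene with the highest FPKM in WT, was at 2276, 755 and 492 CPM in WT, at 683, 7994 and 718 CPM in OVE853 and at 10540, 1405, 6534 and 10435 CPM in OVE918. Crygd was at 1475, 489 and 204 CPM in WT, at 490, 6240 and 535 CPM in OVE853 and at 8472, 1474, 4781 and 9646 CPM in OVE918. Both genes overlapped between WT and OVE918, because OVE918 replicate 2 was below WT replicate 1. Crygc ranged from 386 to 2525 CPM in WT, from 667 to 5858 in OVE853 and from 1348 to 9121 in OVE918. Crygf, the clustered gene with the lowest FPKM, was at 209, 78.0 and 4.49 CPM in WT, at 91.2, 2010 and 167 CPM in OVE853 and at 1796, 202, 966 and 1975 CPM in OVE918. For all 6 genes the 4 highest libraries were OVE853 replicate 2 and OVE918 replicates 1, 3 and 4, and the lowest was WT replicate 3.

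**Figure D1:**
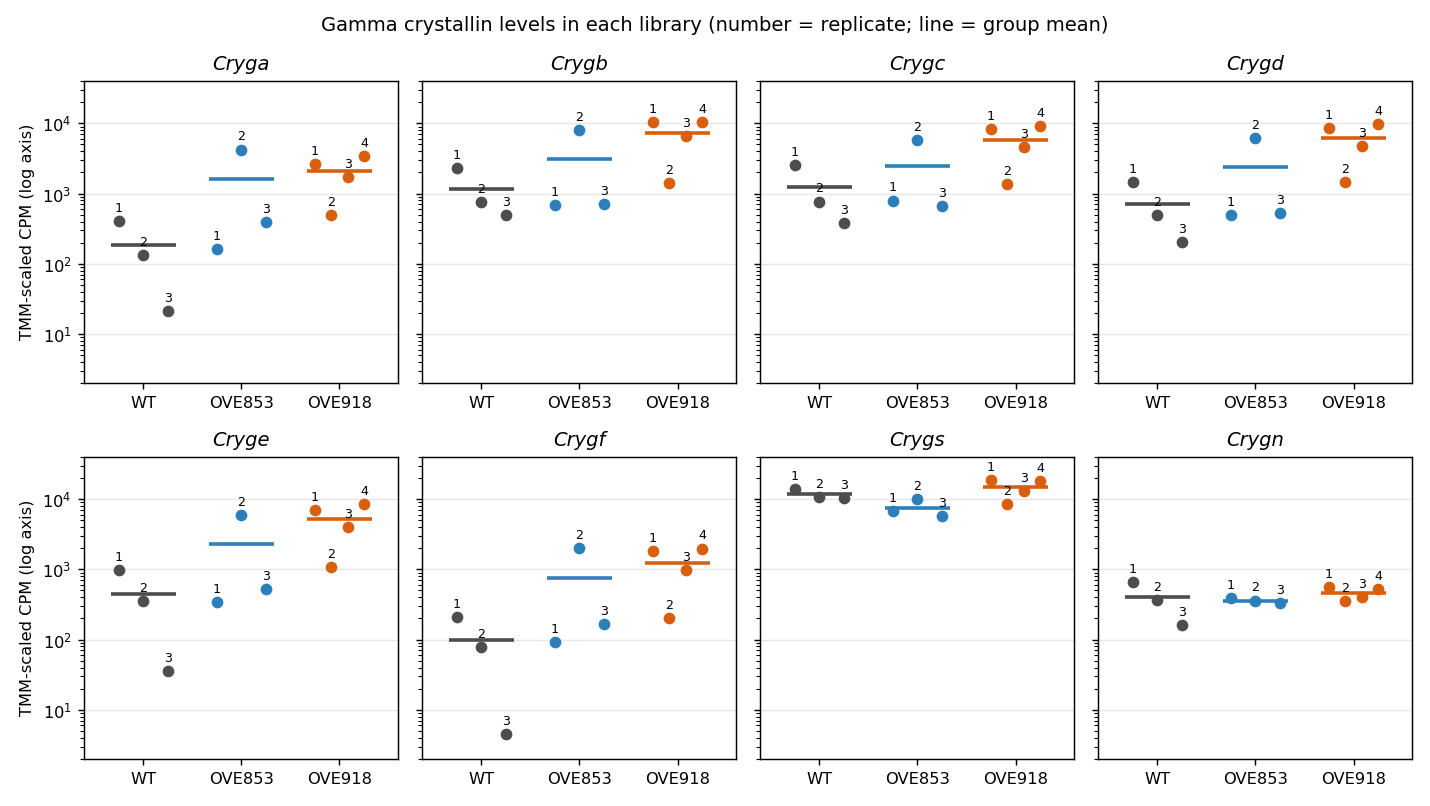
Level of each gamma crystallin in each library (TMM-scaled CPM, log axis), with points numbered by replicate, colours for WT (n = 3), OVE853 (n = 3) and OVE918 (n = 4) and a line at each group's mean. In Cryga to Crygf, OVE853 replicate 2 sits with OVE918 replicates 1, 3 and 4, and OVE918 replicate 2 sits near WT replicate 1, while Crygs and Crygn vary far less.

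From the lowest to the highest library, Crygf spanned 448-fold, Cryge 236-fold, Cryga 201-fold, Crygd 47.3-fold, Crygc 23.6-fold and Crygb 21.4-fold, against 4.14-fold for Crygn and 3.22-fold for Crygs. The SD of log2 CPM between libraries of the same group was 1.92 for Cryga, 1.54 for Crygb, 1.45 for Crygc, 1.57 for Crygd, 1.97 for Cryge and 2.22 for Crygf, where the median of the 11092 genes tested was 0.18. Only 24 of the genes tested had a larger SD than Crygc, and Crygf ranked 5th. Crygs (SD 0.43) and Crygn (SD 0.59) varied less than the cluster, yet more than 91.7% and 96.3% of the genes tested.

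**Figure D2:**
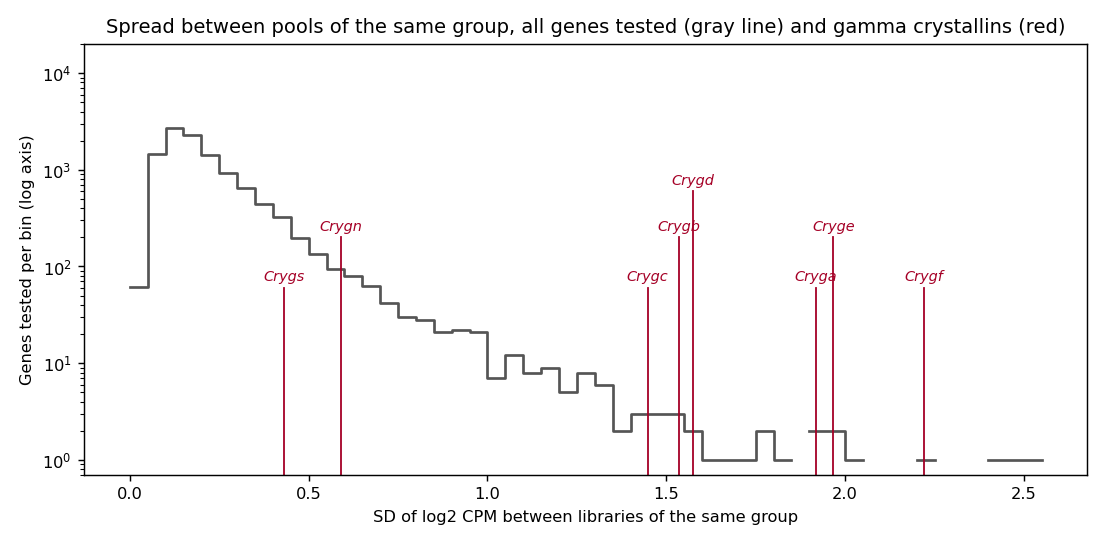
Number of tested genes (log axis) by the SD of log2 CPM between libraries of the same group, with red lines at the gamma crystallins. Cryga to Crygf lie between 1.45 and 2.22, in the far tail, and Crygs (0.43) and Crygn (0.59) lie on its shoulder.

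In OVE853 against WT, 0 of the 8 gamma crystallins were differentially expressed (DEG: edgeR quasi-likelihood test, Benjamini-Hochberg FDR of at most 0.05 and absolute log2 fold change of at least 1), where 4.43% of all genes tested were. At an unadjusted p under 0.05 the count was also 0 of 8, against 34.1% of all genes, at FDR alone it was 0 (15.8% of all genes), and DESeq2 (4.94% of all genes) and limma-voom (4.9%) each called 0. Estimates were above 0 for 6 members, against 48.7% of all genes. The log2 fold change of Cryga was 3.09 (SE 1.43, edgeR FDR 0.165), with a 95% interval from -0.17 to 6.35. That of Crygc was 0.99, with an interval from -1.42 to 3.41. The estimates of the cluster rested on OVE853 replicate 2. Without it, those of Crygb, Crygc, Crygd and Cryge were -0.74, -0.74, -0.49 and -0.06, and those of Cryga and Crygf were 0.58 and 0.41.

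In OVE918 against WT, 0 of 8 members passed as DEGs in edgeR, where 5.6% of all genes tested did, although the estimates were large. Log2 fold changes were 3.47 for Cryga (SE 1.42), 2.62 for Crygb (SE 1.13), 2.26 for Crygc (SE 1.06), 3.08 for Crygd (SE 1.20), 3.51 for Cryge (SE 1.43) and 3.67 for Crygf (SE 1.56), and their edgeR FDRs ran from 0.113 to 0.177. As a fold, Cryga was 11.1 times the WT level with a 95% interval from 1.18 to 105. At an unadjusted p under 0.05 there were 5 of 8 members, against 33.2% of all genes, and at FDR alone 0 of 8, against 19.0%. Estimates were above 0 for all 8, against 52.1% of all genes. The call turned on the test. DESeq2 and limma-voom with sample weights called the same 5 genes higher, Cryga, Crygb, Crygd, Cryge and Crygf, where 6.18% and 5.6% of all genes were called. In edgeR without OVE853 replicate 2, which is in neither group of this contrast but enters the shared fit, Crygd was called (FDR 0.0397). Libraries of the groups did not overlap for 2 of 8 members, Cryga and Cryge, against 27.2% of all genes.

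Between the lines, OVE918 against OVE853, edgeR called 0 of 8 members, where 0.487% of all genes were called, and DESeq2 (0.956%) and limma-voom (1.12%) each called 0. At an unadjusted p under 0.05 there was 1 member, Crygs, against 22.9% of all genes, and at FDR alone 0 (1.31%). Estimates were above 0 for all 8 (46.5% of all genes), and libraries of the lines overlapped for all 8, where 29.5% of all genes did not overlap. For the clustered genes the difference ranged from 0.38 for Cryga, with a 95% interval from -2.45 to 3.22, to 1.33 for Crygd, with an interval from -1.20 to 3.86. Intervals of this width leave the difference between the lines unresolved in these pools. The comparisons with WT share the WT libraries.

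**Figure D3:**
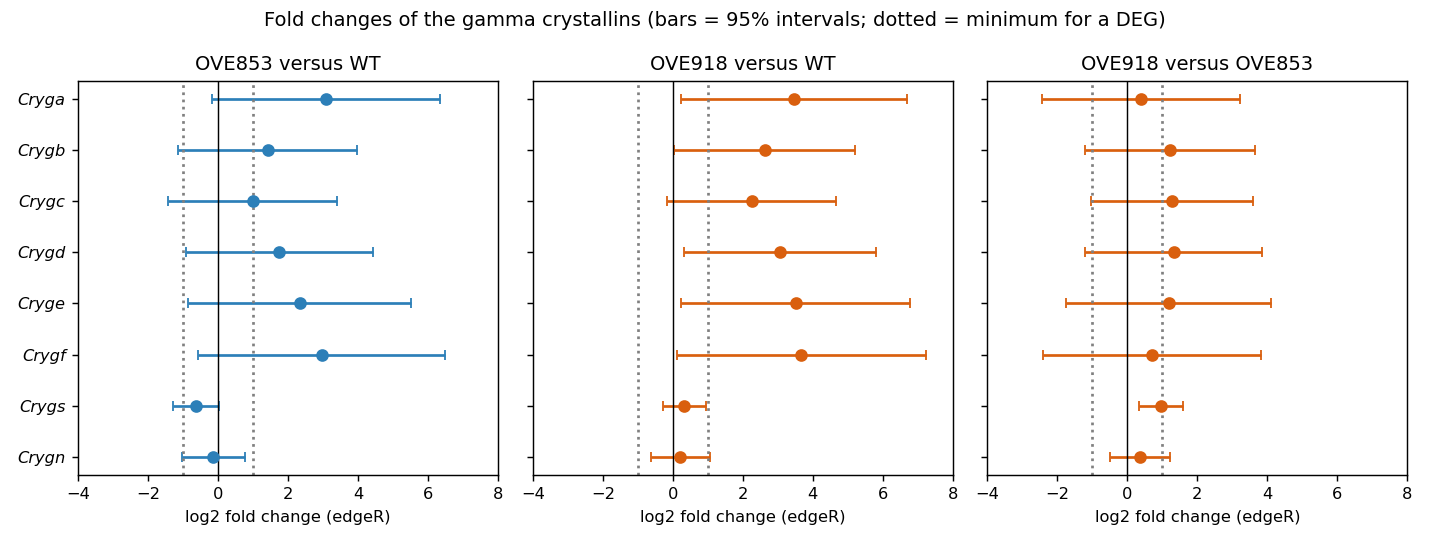
Log2 fold change of each gamma crystallin in the 3 contrasts (points, edgeR) with 95% intervals (bars), and dotted lines at the minimum size for a DEG. Intervals for Cryga to Crygf span several log2 units, and those for Crygs and Crygn are narrower, with that of Crygs between the lines (0.33 to 1.59) lying above 0.

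Crygs varied over a narrower range than the cluster. It was at 13987, 10674 and 10239 CPM in WT, at 6854, 9900 and 5816 CPM in OVE853 and at 18753, 8426, 12982 and 18333 CPM in OVE918. All OVE853 libraries were below all WT libraries, which 45.4% of all genes also showed in one direction or the other, and OVE918 overlapped both other groups. The log2 fold change was -0.63 in OVE853 (SE 0.30, FDR 0.163 in edgeR, 0.0964 in DESeq2 and 0.0486 in limma-voom, below the minimum fold change in each) and 0.33 in OVE918 (edgeR FDR 0.452). Between the lines it was 0.96 (SE 0.28, unadjusted p = 0.00647 and FDR 0.103 in edgeR). Its FDR was 0.00989 in DESeq2 (log2 fold change 0.97) and 0.0139 in limma-voom (0.97), where it missed a call by the minimum fold change. In edgeR without OVE918 replicate 2 the difference was 1.15 (FDR 0.0366), past the threshold. Crygn was at 663, 371 and 160 CPM in WT, at 387, 359 and 332 CPM in OVE853 and at 556, 356, 403 and 528 CPM in OVE918. Its WT libraries included both the highest and the lowest value of the 10. Its log2 fold changes were -0.15 in OVE853, with a 95% interval from -1.05 to 0.75, and 0.21 in OVE918, with an interval from -0.63 to 1.06.

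The make-up of the family differed between libraries. The family took 0.98% to 5.3% of all counts. Crygs made up 62.1%, 78.3% and 88.7% of the family's counts in WT, 69.8%, 23.3% and 63.6% in OVE853 and 32.2%, 57.0%, 36.0% and 29.6% in OVE918. Its share was higher in every WT library than in any OVE918 library, while OVE853 replicate 2 had the lowest share of all. Summed over Cryga to Crygf, levels were 7858, 2582 and 1143 CPM in WT, 2572, 32260 and 3003 CPM in OVE853 and 38940, 5988, 22650 and 43120 CPM in OVE918. Within the cluster, WT replicate 3 also differed in proportions, with 43.0% of the cluster's counts from Crygb and 3.15% from Cryge, whereas in the other libraries Crygb gave 23.5% to 29.3% and Cryge 12.2% to 19.7%. Cryge had 8.03 counts for each Crygf count in WT replicate 3 and 2.94 to 5.28 elsewhere. Counted as a single feature, Cryge and Crygf together gave 2.46 in OVE853 and 3.54 in OVE918 on the log2 scale (edgeR FDR 0.253 and 0.128).

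**Figure D4:**
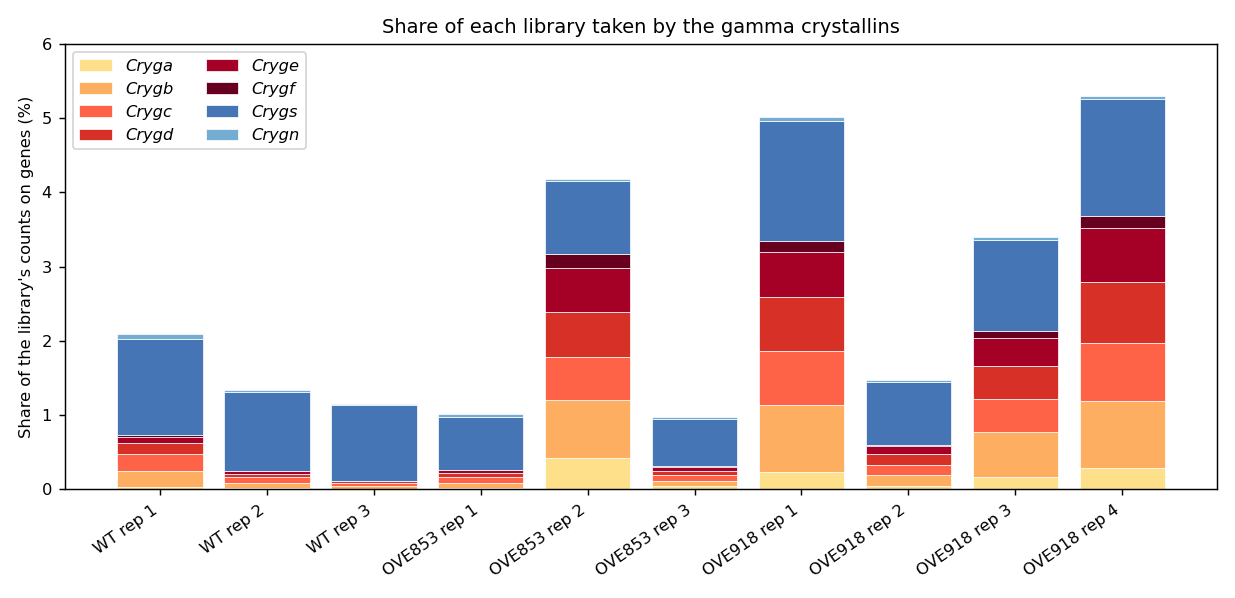
Share of each library's counts on genes taken by each gamma crystallin (stacked bars from 0, percent). Crygs (dark blue) varies from 0.623% to 1.61%, and the 6 clustered genes (yellow to dark red) from 0.114% in WT replicate 3 to 3.69% in OVE918 replicate 4.

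An R number in the library names of the study's R script, whose meaning the sources used here do not state, crossed the groups. WT replicate 1 and OVE918 replicate 4 carry no R number in those names and were assumed here to be R number 1. With R number 2 the cluster summed to 2582 CPM in WT, 3003 in OVE853 and 5988 in OVE918, and these included the OVE918 pool with the lowest level. With R number 4, which has no WT library, it summed to 32260 CPM in OVE853 and 38940 in OVE918. With R number 3 it was 1143, 2572 and 22650 CPM in WT, OVE853 and OVE918, and with the assumed R number 1 it was 7858 in WT and 43120 in OVE918. OVE918 was the highest within each R number. With the R number, the assumed level included, in the edgeR model, 2 members (Crygc and Crygd) were called in OVE918 against WT, where 5.8% of all genes were. That model called 0 members in OVE853 against WT (4.45% of all genes) and 0 in OVE918 against OVE853 (0.298%).

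Across the 10 libraries, log2 CPM of any pair among Cryga to Crygf correlated with a Pearson r of 0.906 to 0.993, and of 0.895 to 0.998 after group means were subtracted. For Crygs with the cluster r was 0.472 to 0.746, and 0.769 to 0.92 after subtraction, and for Crygn with the cluster 0.602 to 0.727 and 0.526 to 0.766. These are descriptions over libraries that share their depth and dissection. The 5 genes outside the crystallins whose levels were most like the family's sum were Pstpip2 (r = 0.992, 8.51 to 32.9 CPM), Svbp (0.971), Hmgn3 (0.968), Tcp11 (0.968, 2.66 to 62.1 CPM) and Btf3l4 (0.967).

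Some markers of lens fiber cells varied as the cluster did. Birc7, used here as a fiber marker, was at 5.1, 3.31 and 3.72 CPM in WT, at 2.17, 58.5 and 3.51 CPM in OVE853 and at 96.7, 5.1, 40.7 and 64.0 CPM in OVE918. Dnase2b, the nuclease that degrades DNA in maturing fiber cells and was below the level needed for testing, was at 1.44 to 2.68 CPM in WT, at 1.33, 34.8 and 0.987 CPM in OVE853 and at 24.0, 2.91, 22.1 and 29.4 CPM in OVE918. The highest libraries were again OVE853 replicate 2 and OVE918 replicates 1, 3 and 4. Of the 12 fiber markers, 6 (Bfsp1, Bfsp2, Dnase2b, Lctl, Birc7 and Lenep) had just these 4 libraries as their highest, as did 1.24% of all genes tested, 0 of the 8 α and β crystallins and 0 of the 5 lens epithelium markers. This pattern was looked for after the gamma crystallin levels had been seen. Mip and Lim2, which are more abundant, did not share it. Mip, a fiber water channel gene, was at 2350 to 5360 CPM in WT, 2170 to 3240 in OVE853 and 3550 to 5520 in OVE918. Lim2, a fiber membrane protein gene, was at 617 to 1120, 477 to 1040 and 776 to 1760 CPM in the same order. Of the 11 fiber markers tested, edgeR called 0 in OVE853 (4.43% of all genes) and 0 in OVE918 (5.6%). By FDR alone 1, Grifin, was lower in OVE853 (log2 fold change -0.95, edgeR FDR 0.012) and 0 were higher (15.8% of all genes). In OVE918 0 passed by FDR alone (19.0%). At an unadjusted p under 0.05 there were 2 in OVE853, against 34.1% of all genes, and 3 in OVE918, against 33.2%. DESeq2 called 0 and 1 (Birc7), against 4.94% and 6.18% of all genes, and limma-voom 0 and 0, against 4.9% and 5.6%. The median log2 fold change of the list was -0.167 and 0.613, against -0.011 and 0.014 over all genes tested. The part of fiber cells in the gamma crystallin levels was not tested.

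**Figure D5:**
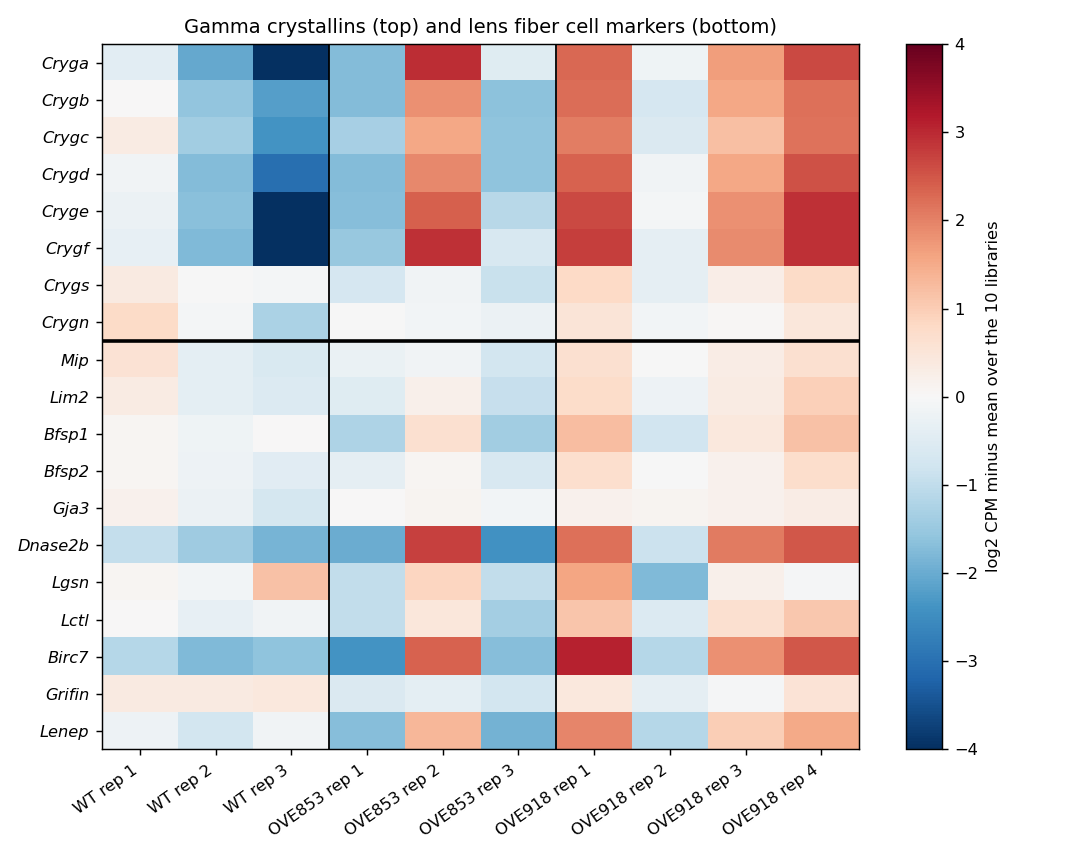
Log2 CPM minus its mean over the 10 libraries for the gamma crystallins (above the line) and 11 lens fiber cell markers (below it), red for higher and blue for lower, with thin lines between WT, OVE853 and OVE918. The columns for OVE853 replicate 2 and OVE918 replicates 1, 3 and 4 are red in Cryga to Crygf, Dnase2b, Birc7 and Lenep.

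The other crystallins were compared in the same fit. The α and β crystallins, chaperones and structural proteins of the lens, summed to 241600 to 268200 CPM in WT, 153000 to 188900 in OVE853 and 201400 to 338100 in OVE918. In edgeR 0 of 8 were DEGs in OVE853 (4.43% of all genes) and 0 in OVE918 (5.6%). At an unadjusted p under 0.05 there were 4 in OVE853 (34.1% of all genes) and 0 in OVE918 (33.2%). DESeq2 (4.94% and 6.18% of all genes) and limma-voom (4.9% and 5.6%) called 0 in both. The median log2 fold change of the α and β crystallins was -0.468 in OVE853 and 0.304 in OVE918, where the gamma crystallins had medians of 1.58 and 2.85. Without OVE853 replicate 2 the gamma crystallin median in OVE853 was -0.32, with members from -0.88 to 0.58. In OVE918 against OVE853 the α and β crystallin median was 0.787 and the gamma crystallin median 1.073. All 8 α and β estimates were above 0 (46.5% of all genes), and 6 were at an unadjusted p under 0.05 (22.9%). There edgeR called 0 of the α and β crystallins (0.487% of all genes). DESeq2 (0.956%) and limma-voom (1.12%) each called 1, Cryba1. Cryba2 was lower in OVE853 by FDR alone (log2 fold change -0.87, edgeR FDR 0.0321). Cryaa, the most abundant, was at 114000 to 119000 CPM in WT and 76900 to 88400 in OVE853 (log2 fold change -0.48, edgeR FDR 0.0796), Crybb2 at 37100 to 51100 and 21600 to 27100 CPM, and Cryab at 34300 to 39900 and 25300 to 28100 CPM. Crybg1, a βγ-domain gene that is not a lens crystallin, rose in OVE918 from 7.92 to 15.1 CPM in WT to 30.9 to 41.9 CPM (log2 fold change 1.63, edgeR FDR 0.000958). In OVE853 it was also higher, at 16.1 to 28.2 CPM (log2 fold change 0.83, edgeR FDR 0.0469), short of the minimum fold change.

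Of 11 transcription factors that act on crystallin genes or in lens development, edgeR called 1 as a DEG in OVE918 (5.6% of all genes) and 0 in OVE853 (4.43%). At an unadjusted p under 0.05 there were 6 in OVE918 (33.2% of all genes) and 5 in OVE853 (34.1%). DESeq2 and limma-voom each called 1, Hsf4, in OVE918 (6.18% and 5.6% of all genes) and 0 in OVE853 (4.94% and 4.9%). In OVE918 against OVE853 both again called 1, Hsf4 (0.956% and 1.12% of all genes), and edgeR called 0 (0.487%). The edgeR log2 fold change of Hsf4 between the lines was 1.09 (FDR 0.0814). Hsf4, the heat shock factor needed for fiber cell differentiation and γ-crystallin expression, was at 69.1, 43.0 and 39.0 CPM in WT, at 49.3, 59.0 and 39.6 CPM in OVE853 and at 118, 64.1, 93.5 and 145 CPM in OVE918. It rose in OVE918 by a log2 fold change of 1.06 (SE 0.29, edgeR FDR 0.0276), although OVE918 replicate 2 was below WT replicate 1, as in Crygb. Six3 and Sox2, which act in early lens formation, were lower in both lines without reaching the minimum fold change. Six3 was at -0.38 in OVE853 (edgeR FDR 0.00959) and -0.66 in OVE918 (edgeR FDR 0.000123), and Sox2 at -0.25 (edgeR FDR 0.0476) and -0.30 (edgeR FDR 0.0137). Prox1, which promotes fiber differentiation, was at 294 to 532 CPM in WT, 638 to 660 in OVE853 (edgeR FDR 0.0812) and 410 to 757 in OVE918 (edgeR FDR 0.131).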

How the data were processed

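Pooled lens epithelia gave 10 RNA-seq libraries. Reads had been trimmed (Cutadapt 5.2), mapped to GRCm39 (STAR 2.7.11b) and assigned to genes by strand (featureCounts 2.0.8, without pairs that map to several places) by the authors, and the deposited values are raw counts per gene. Versions are from the submitters' processing notes. The main test was that of edgeR (4.0.16), with DESeq2 (1.42.0) and limma (3.58.1) as alternatives, all run under R (4.3.3). Testing required 2 FPKM or more in 5 libraries, which left 11092 genes, all 8 gamma crystallins among them, with exon lengths of GENCODE vM39 matched by symbol, since the RefSeq annotation was not used here. Symbols without a length (7511 of 50763) could not pass. The fit used TMM factors, robust quasi-likelihood dispersions, 3 groups together and Benjamini-Hochberg adjustment within each of 3 contrasts. CPM and FPKM are TMM-scaled, and correlations used log2 CPM with a prior count of 2. Counting error is small at these totals, so the spread between pools limits precision.

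The members, gene lists and tests were chosen with earlier results of these data known. All 8 members are named. From each list up to 4 DEGs with the smallest FDR, or else the 3 most abundant genes, were named, apart from 1 gene that is not reported here. Birc7, Dnase2b, Grifin, Prox1, Six3, Sox2, Cryba2 and Crybg3 were named after their values were seen. Markers of photoreceptors, pigmented epithelium, ciliary epithelium, cornea, macrophages and erythrocytes were summed. The steps were tested on simulated data. Alternatives comprised other scalings, filters, lengths and tools, blocks for the replicate number or the R number, Cryge and Crygf summed, and each library left out in turn.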

Additional observations from a re-analysis of the deposited data

How the results depend on the processing

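Each result was recomputed under up to 25 other settings. The number of gamma crystallin DEGs in OVE918 against WT was 0 in edgeR, 5 with DESeq2, 5 with limma-voom, 2 with the R number block and 0 to 1 with a library left out (1 without OVE853 replicate 2). In OVE918 against OVE853 it was 0 to 1 with a library left out (1, Crygs, without OVE918 replicate 2). In OVE853 against WT it was 0 throughout. Of 570 recomputed fold changes, 546 kept their direction and side of the threshold, 14 passed it and 10 turned sign, none of them called. With a library left out, log2 fold changes in OVE853 against WT ran from -0.7432 to 2.3275 (Crygb), -0.7441 to 2.0757 (Crygc), -0.4941 to 2.8042 (Crygd) and -0.0566 to 3.5277 (Cryge), lowest without OVE853 replicate 2 and highest without WT replicate 1. That of Crygn was 0.0203 with the replicate block, 0.1957 with the R number block and -0.5255 to 0.4353 with a library left out, and in OVE918 it was -0.1663 (without WT replicate 3) to 0.7938. That of Cryga in OVE918 against OVE853 was -0.1402 (without OVE853 replicate 1) to 2.8973, and -0.066 without OVE853 replicate 3. The cause was not tested. Deviations from group means gave r of -0.3 to 0.08 in 9 pairs with the same replicate number. Pairs with neither the replicate number nor the R number in common reached -0.399 and 0.296. These values cannot decide whether replicate numbers pair the libraries, because deviations within a group sum to 0. With the replicate block the number of gamma crystallin DEGs was 0 in each contrast. Same R numbers gave r of -0.22 to 0.39 in 8 pairs. Totals of 24073311 counts or more leave counting error small, and the few pools per group set the limit.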

Other observations

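Non-pigmented ciliary epithelium markers fell in both lines, from a summed 592.3 to 1061 CPM in WT to 205.7 to 268.9 in OVE853 and 48.54 to 113.8 in OVE918. In edgeR 4 of 4 were called in each line, against 4.43% of all genes in OVE853 and 5.6% in OVE918. The study had already reported these 4 genes as reduced in both lines. The list was chosen with earlier results of these data known, so its count is not independent of them. They were Optc, Best2, Wfdc1 and Slc6a13, with log2 fold changes of -1.44, -2.39, -2.41 and -3.18 in OVE853 and of -3.05, -4.16, -3.62 and -4.77 in OVE918. Gja1, a connexin gene of the lens epithelium, fell in both lines (log2 fold change -2.31 and -3.05). Of the cornea markers, Aldh3a1 fell in both lines (-3.65 and -4.11), and the list summed to 26.34 to 92.39 CPM in the transgenic libraries, with Kera at 0 in all libraries. Pigmented epithelium markers, led by Tyrp1, Dct and Pmel, summed to 43.2 to 170.9 CPM over all libraries, and photoreceptor markers, led by Rom1, Sag and Crx, to 27.54 to 109. Macrophage markers summed to 16.2 to 76.36, and erythrocyte markers, led by Hbb-bs, Hba-a1 and Hbb-bt, to 7.671 to 74.28, with Hba-a2 at 0. In edgeR C1qa rose in OVE918 (log2 fold change 1.35 and FDR 0.0446) and was at 1.35 with FDR 0.0586 in OVE853. Of the 4 macrophage markers tested, DESeq2 called 3 in OVE853 (4.94% of all genes) and 3 in OVE918 (6.18%). In limma-voom 4 were called in OVE853 (4.9% of all genes) and 3 in OVE918 (5.6%). Crybg3, a βγ-domain gene that did not reach the 2 FPKM in 5 libraries needed for testing, was at 34.9 to 52.4 CPM in WT, 12.8 to 13.3 in OVE853 and 5.44 to 10.0 in OVE918. Crybg2 was not tested either, at no more than 0.214 CPM.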
